A study of Mus musculus with 16 samples.

Results

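Aldh1l2 and 8 further enzymes of folate metabolism were followed in whole-kidney RNA of mice that had lost Hes1 in the renal tubules. These 9 genes, out of 28971 in the count table, were picked by name: Aldh1l2 because it rose in this very comparison, the others because they act beside it. All 9 passed the filter on low counts, which kept 15615 genes. Aldh1l2, Mthfd1l, Mthfd2, Mthfd2l and Shmt2 encode the mitochondrial enzymes, and Aldh1l1, Mthfd1, Shmt1 and Mtr the cytosolic ones.

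The Hes1 cKO (conditional knockout) animals carried Pax8-rtTA and TRE->Cre together with Hes1 f/f, so that doxycycline turns on Cre recombinase wherever the Pax8 promoter is active, that is, in tubule epithelium of the whole nephron and collecting duct. The controls were labelled as wild type littermates, without a list of the alleles they carry, and received the same doxycycline (1 mg/mL with 5% sucrose in the drinking water, for 1 week from 3 weeks of age). The series text gives the finding of genes that differ between the genotypes as its purpose. Used here were 3 Hes1 cKO and 4 control libraries, 1 kidney sample each, whose names show the genotype and a code that the labels do not explain, but not sex or litter. The numbers of libraries below only name them. Nothing states that the samples came from separate animals, so a p-value measures the spread between these samples.

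Folate carries single carbon units between molecules. In mitochondria, Shmt2 takes the carbon from serine, Mthfd2 and Mthfd2l oxidize it, Mthfd1l releases it as formate, and Aldh1l2 burns it to carbon dioxide while making NADPH. In the cytosol, Shmt1 exchanges it with serine, Mthfd1 attaches formate to folate, Mtr passes the carbon to homocysteine to make methionine, and Aldh1l1 carries out the same final oxidation as Aldh1l2. Liver and kidney are known for abundant Aldh1l1.

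Most of these enzymes have a paralog in the set, so 4 such pairs were compared to see how alike the counted transcripts are: 3 of a mitochondrial with a cytosolic enzyme, and Mthfd2 with Mthfd2l, both mitochondrial. No stretch of 31 bases was shared, on either strand, between the protein-coding GENCODE transcripts of any of these pairs; Mtr and other pairings were not compared. The longest run of identical bases in each pair, with both transcripts read in their own direction, is printed here. It bounds exact identity only, since stretches with mismatches were not compared. Each run is shorter than the read length of 150 bases.
Aldh1l2 and Aldh1l1, 22 bases: ctcaacgtgctccccttctgca
Mthfd1l and Mthfd1, 20 bases: ggaacgatgagcacaatgcc
Mthfd2 and Mthfd2l, 20 bases: cccatgaccgtggccatgct
Shmt2 and Shmt1, 19 bases: cccaagactggcaaagaga

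Total counts ranged from 16973931 to 20420422 per library. Hes1 checks the group names: its level was 17.2 to 19.8 CPM (counts scaled to the library size) in the 3 Hes1 cKO libraries and 42.8 to 67.6 CPM in the 4 controls. The log2 fold change was -1.61 (SE 0.16), with an adjusted p of 0.00357 by edgeR's quasi-likelihood test and an exact two-sided permutation p of 0.0571 (double the smaller tail), the smallest that 35 splits allow. Counted on the absolute difference of means instead, a definition added after the value had been seen, the exact permutation p was 0.0286. Proximal tubule (8 of 8 markers), thick ascending limb (4 of 4) and distal convoluted tubule markers (3 of 3) had counts in every library, whereas Avpr2 (principal cell list) and Cd3e (immune list) were at 0 in at least 1 library and were not tested. Xist was high in 3 libraries (Hes1 cKO 3 with 342, control 3 with 333 and control 4 with 367 CPM) and stayed at or under 0.371 CPM elsewhere. Across all 15615 tested genes, edgeR called 0.339% at an adjusted p under 0.05.

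Aldh1l2 (ENSMUSG00000020256) encodes mitochondrial 10-formyltetrahydrofolate dehydrogenase and lies on chromosome 10, from 83487450 to 83534140 on the minus strand of GRCm38. It had 328, 372 and 256 counts in Hes1 cKO 1, 2 and 3, or 17.4, 18.4 and 15.1 CPM. In control 1, 2, 3 and 4 it had 27, 70, 31 and 63 counts, or 1.55, 3.71, 1.70 and 3.44 CPM. The groups were far apart: the lowest Hes1 cKO library lay 4.06-fold above the highest control. The means were 16.9 ± 1.71 CPM (SD, n = 3) and 2.60 ± 1.13 CPM (SD, n = 4), and the fitted log2 fold change was 2.70 (SE 0.29). As Aldh1l2 was chosen for this rise, these values describe it and no test is given.

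The controls varied among themselves. Counting error alone, as an exact 95% Poisson interval, spanned 1.02 to 2.25 CPM in control 1 and 1.16 to 2.41 CPM in control 3. It spanned 2.89 to 4.68 CPM in control 2 and 2.64 to 4.40 CPM in control 4. Among the Hes1 cKO libraries all intervals overlapped, those of libraries 1 and 2 being 15.5 to 19.3 CPM and 16.6 to 20.4 CPM. The intervals cover counting error only, since reads carry no molecular identifiers.

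**Figure D1:**
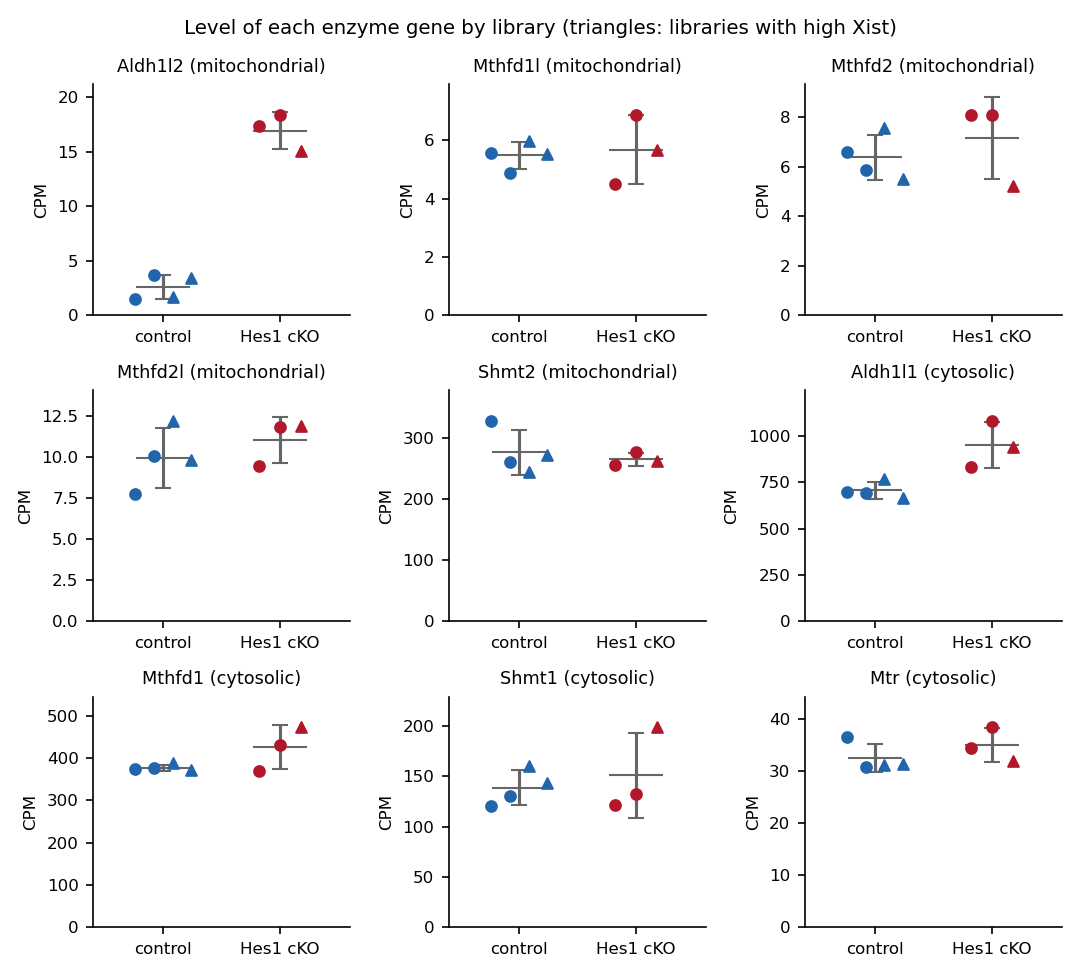
Level of each of the 9 enzyme genes in CPM (vertical axes from 0) in the 4 control (blue) and 3 Hes1 cKO libraries (red); triangles are libraries with high Xist, and lines show the mean ± SD. Aldh1l2 sits at 15.1 to 18.4 CPM in Hes1 cKO and at 1.55 to 3.71 CPM in control, Aldh1l1 is the other gene whose groups do not overlap, and the remaining 7 overlap.

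Of the 7503 exonic bases of Aldh1l2, 1056 (14.1%) also belong to exons of D10Wsu102e, a protein-coding gene on the opposite strand. Whether the counting used strand is unknown here, and if it did not, reads from that stretch cannot be told apart. D10Wsu102e itself averaged 42.5 ± 3.80 CPM (SD, n = 3) with Hes1 lost and 40.6 ± 7.29 CPM (SD, n = 4) without. Its groups overlapped, and its log2 fold change was 0.07 (SE 0.14), beside means of Aldh1l2 that differed 6.52-fold.

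The other 4 mitochondrial enzymes showed no such shift. Mthfd2, the mitochondrial methylenetetrahydrofolate dehydrogenase best known from dividing cells, measured 8.09, 8.11 and 5.23 CPM in the Hes1 cKO libraries, against 6.60, 5.88, 7.57 and 5.51 CPM in the controls. Hes1 cKO 1 and 2 lay above and Hes1 cKO 3 below every control. Mthfd2l, its paralog in differentiated tissue, was at 9.47, 11.9 and 11.9 CPM against 7.74, 10.1, 12.2 and 9.83 CPM. Mthfd1l, the formate-releasing synthetase, was at 4.50, 6.87 and 5.65 CPM against 5.56, 4.87, 5.98 and 5.51 CPM, so that Hes1 cKO held both the lowest and the highest library. Shmt2, the mitochondrial serine hydroxymethyltransferase, was at 256, 276 and 262 CPM against 328, 261, 244 and 272 CPM. Its controls spanned the whole Hes1 cKO range, with control 1 highest.

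For these 4 genes the fitted log2 fold changes were 0.16 (SE 0.20) for Mthfd2, 0.15 (SE 0.17) for Mthfd2l, 0.05 (SE 0.18) for Mthfd1l and -0.06 (SE 0.11) for Shmt2. The 95% intervals bound what these libraries leave possible. They ran from -0.28 to 0.61 for Mthfd2, from -0.23 to 0.53 for Mthfd2l and from -0.36 to 0.46 for Mthfd1l. For Shmt2 the interval was -0.30 to 0.18. The sign of Mthfd1l turned when Hes1 cKO 2 (-0.11) was left out or control 2 (-0.0028), and that of Shmt2 when control 1 was (0.03).

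Among the cytosolic enzymes, Aldh1l1 (ENSMUSG00000030088; chromosome 6, 90486427 to 90600203, plus strand) was higher in every Hes1 cKO library than in any control. It was at 833, 1084 and 942 CPM in Hes1 cKO 1, 2 and 3. In control 1, 2, 3 and 4 it was at 698, 691, 771 and 667 CPM. The gap between the groups was narrow, 1.08-fold between Hes1 cKO 1 and control 3. The means were 953 ± 126 CPM (SD, n = 3) and 707 ± 44.8 CPM (SD, n = 4). The fitted log2 fold change was 0.43 (SE 0.11, 95% interval 0.19 to 0.67). In the fit over all genes edgeR did not call it (adjusted p 0.344), whereas DESeq2's Wald test did (adjusted p 0.0176; over the 14 alternatives, including the count tools, the adjusted p ran up to 1.00). The comparison that chose the set gave both values. Left-out libraries moved the log2 fold change between 0.33 (without Hes1 cKO 2) and 0.52 (without Hes1 cKO 1). Of its exonic bases, 13.4% are shared with the non-coding genes Gm45901 and Gm15756, neither of which exceeded 0.423 CPM in any library.

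The 3 other cytosolic enzymes overlapped between the groups. Mthfd1, the trifunctional synthetase, measured 370, 431 and 474 CPM in the Hes1 cKO libraries, against 373, 377, 387 and 371 CPM in the controls. The controls were tight and the Hes1 cKO libraries were spread, with library 1 just below and libraries 2 and 3 above all controls. Its log2 fold change was 0.17 (SE 0.10, 95% interval -0.04 to 0.39). Shmt1, the cytosolic serine hydroxymethyltransferase, was at 121, 132 and 199 CPM against 121, 131, 160 and 144 CPM. Here Hes1 cKO 3 stood above all other libraries, and without it the log2 fold change of 0.12 (SE 0.17) became -0.13. Mtr, methionine synthase, was at 34.4, 38.5 and 31.9 CPM against 36.5, 30.8, 31.2 and 31.4 CPM. The log2 fold change was 0.11 (SE 0.10, 95% interval -0.12 to 0.34).

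Counted together, 8 of the 9 genes had a log2 fold change above 0, 4 of 5 mitochondrial and 4 of 4 cytosolic, against 48.4% of all tested genes. The median was 0.15 in the mitochondrial and 0.15 in the cytosolic group, beside -0.01 over all genes. The groups did not overlap for 2 of the 9, both higher (all genes, 7.01%, of which 3.71% higher and 3.29% lower), and edgeR called 1 of them as higher, Aldh1l2 (all genes, 0.32% higher and 0.0192% lower). The comparison from which the genes were chosen gave these counts, so nothing is read from them.

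**Figure D2:**
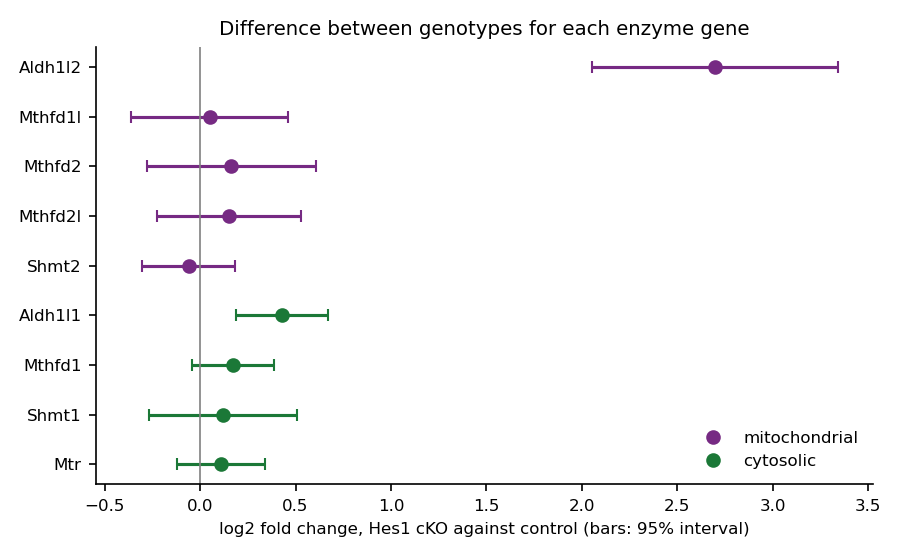
Fitted log2 fold change of Hes1 cKO against control (horizontal axis) for the 5 mitochondrial (purple) and 4 cytosolic genes (green); points are edgeR estimates and bars their 95% intervals. The interval of Aldh1l2 runs from 2.05 to 3.34, that of Aldh1l1 from 0.19 to 0.67, and the other 7 include 0.

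Levels were compared between genes only per kilobase of exon (RPKM, with exon lengths from GENCODE). In control, Aldh1l1 stood first at 156 ± 9.92 RPKM (SD, n = 4), above Shmt2 (88.8 ± 11.8 RPKM) and Mthfd1 (84.8 ± 1.65 RPKM), whose ranges overlapped. Shmt1 followed at 35.8 ± 4.40 RPKM. After a drop of nearly an order of magnitude came Mtr at 3.81 ± 0.315 RPKM. Mthfd2 (1.83 ± 0.260 RPKM), Mthfd2l (1.17 to 1.84 RPKM) and Mthfd1l (1.24 ± 0.103 RPKM) overlapped each with the next, and Aldh1l2 was last at 0.346 ± 0.151 RPKM, its range below that of Mthfd1l.

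In Hes1 cKO the order changed at Aldh1l2. It was sixth at 2.26 ± 0.228 RPKM (SD, n = 3), with a range that overlapped that of Mthfd2 (2.05 ± 0.475 RPKM) and lay below that of Mtr (4.10 ± 0.390 RPKM). Mthfd1 (95.7 ± 11.7 RPKM) and Shmt2 (85.2 ± 3.30 RPKM) also traded places, with overlapping ranges in both genotypes. The remaining genes kept their order.

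In whole-kidney RNA, Aldh1l2 thus remained a small part of the summed level of Aldh1l1 and Aldh1l2. Protein and activity were not measured. Aldh1l2 made up 1.24%, 1.01% and 0.953% of the summed RPKM of Aldh1l1 and Aldh1l2 in Hes1 cKO 1, 2 and 3. In control 1, 2, 3 and 4 it made up 0.133%, 0.322%, 0.133% and 0.309%. The shares did not overlap, and the mean share was 4.76-fold higher in Hes1 cKO. As Aldh1l2 was chosen for its rise between the same groups, this difference is a description and nothing is read from it. Aldh1l1 was higher by 54.5 RPKM in the mean and Aldh1l2 by 1.91 RPKM. The sum of the pair was 157 ± 9.82 RPKM (SD, n = 4) in control and 213 ± 27.9 RPKM (SD, n = 3) in Hes1 cKO.

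Over all mitochondrial enzymes, where Shmt2 supplies most of the level, the summed RPKM averaged 92.4 ± 3.97 (SD, n = 3) with Hes1 lost and 93.8 ± 11.4 (SD, n = 4) without, and the ranges overlapped. Without Shmt2 the sum of the other 4 was 7.07, 8.11 and 6.57 RPKM against 4.52, 4.79, 5.59 and 4.76 RPKM. These ranges were apart. In the mean, Aldh1l2 was higher by 1.91 RPKM, Mthfd2 by 0.217, Mthfd2l by 0.166 and Mthfd1l by 0.0427 RPKM. The sum includes Aldh1l2, which was chosen for its rise in this comparison, so nothing is read from the separation. The cytosolic sum was 350 ± 40.4 RPKM (SD, n = 3) against 281 ± 14.6 RPKM (SD, n = 4), of which Aldh1l1 made up most. Its lowest Hes1 cKO library (303.1 RPKM) and highest control (302.8 RPKM) nearly met. Within the pairs, the ratio of Shmt2 to Shmt1 (2.29 ± 0.568 against 2.54 ± 0.627) and of Mthfd2 to Mthfd2l (1.26 ± 0.397 against 1.25 ± 0.255) differed by less than their spread.

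**Figure D3:**
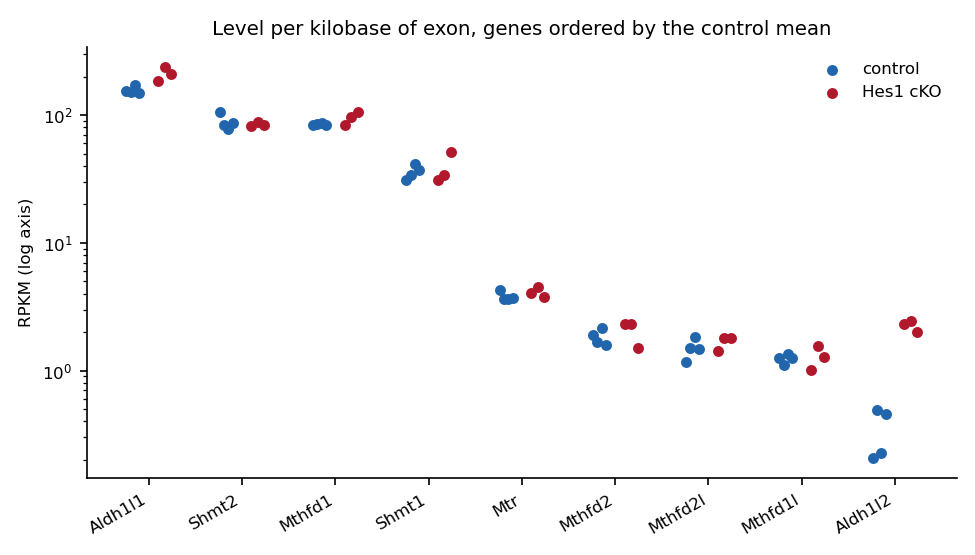
Level per kilobase of exon (RPKM, log axis) of each enzyme gene in every control (blue) and Hes1 cKO library (red), ordered by the control mean. Aldh1l2 moves from the lowest place in control, 0.346 RPKM in the mean, to 2.26 RPKM in Hes1 cKO, beside Mthfd2.

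The markers of intercalated cells, the acid- and base-moving cells of the collecting duct, differed between the genotypes along with Aldh1l2. Of 12 such markers, 12 had a log2 fold change above 0, from 0.41 to 2.44 with a median of 1.31. As higher, edgeR called 10 of them (all genes, 0.32% higher and 0.0192% lower). Their summed level was 1595 to 1710 CPM in Hes1 cKO and 581 to 767 CPM in control, 2.39-fold higher in the mean, and all 12 had counts in every library. Of 7 tested principal cell markers, 7 had a log2 fold change below 0 and edgeR called 1, and their sum was 759 to 1212 CPM against 1241 to 1888 CPM. Summed proximal tubule markers overlapped, at 10198 to 11433 CPM against 10515 to 13245 CPM, and so did thick ascending limb, distal convoluted tubule, endothelial, stromal and immune markers. In whole-tissue RNA a change in the number of cells of a type and a change in the RNA per cell cannot be told apart.

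Aldh1l2 was also expressed as a ratio to these markers, as a description of the values it was chosen for. For each 1000 CPM of their sum there were 10.2, 10.8 and 9.44 CPM of Aldh1l2 in Hes1 cKO 1, 2 and 3. In control 1, 2, 3 and 4 there were 2.67, 5.23, 2.22 and 4.62 CPM. These ratios did not overlap and differed 2.75-fold in the mean, less than the 6.52-fold of Aldh1l2 itself. Taken marker by marker, the ratio was higher without overlap in Hes1 cKO for 11 of the 12 and overlapped for 1. The exception was Hmx2, with ratios of 0.189, 0.220 and 0.254 in Hes1 cKO 1 to 3 and of 0.133, 0.248, 0.112 and 0.217 in control 1 to 4. For Foxi1, a transcription factor that defines intercalated cells, the ratio was 0.142 ± 0.0130 (SD, n = 3) in Hes1 cKO, beside 0.0779 ± 0.0273 (SD, n = 4). The log2 fold change of Aldh1l2 (2.70) exceeded that of every marker (0.41 to 2.44). Ratios with higher means in Hes1 cKO thus followed from the choice of Aldh1l2, and nothing is read from their number. Which cells hold the Aldh1l2 transcript was not tested.

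The genes most like Aldh1l2 were found by the root mean square difference, over the 7 libraries, between log2 CPM values centred on each gene's control mean. Among 14143 genes with a mean of at least 1 CPM, the nearest was Hmx2, a homeobox transcription factor, with a difference of 0.42. Its levels were 59.3 to 92.0 CPM in Hes1 cKO and 11.6 to 15.8 CPM in control. Next came its neighbour Hmx3 (difference 0.44, at 2.65 to 4.39 CPM and 0.459 to 0.741 CPM), then Gm47795 (0.47, at 7.71 to 8.09 CPM and 0.631 to 1.59 CPM) and Gm47790 (0.47, at 1.83 to 3.17 CPM and 0.115 to 0.635 CPM). Tldc2, which encodes a TLDc domain protein, came last of the 5 (0.51), at 36.0 to 53.5 CPM against 6.83 to 9.88 CPM. The groups of all 5 genes were apart, Hmx2 is also among the 12 intercalated cell markers, and since Aldh1l2 was chosen for its difference between the same groups, this likeness is a description.

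The rest of the one-carbon network was read from 5 lists with 35 genes, all tested. None was called by edgeR, and DESeq2 and limma-voom called 0 of them too; at an unadjusted p under 0.05 there were 2 (5.95% of all tested genes pass that mark). Of the 35 genes, 12 were above 0 and 23 below, with a median log2 fold change of -0.08, beside -0.01 over all genes.

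Serine and glycine genes supply the carbon. Of 7, 2 had a log2 fold change above 0 and 5 below. Gcsh, the carrier protein of glycine cleavage, measured 106, 83.6 and 108 CPM in the Hes1 cKO libraries, against 147, 121, 121 and 121 CPM in the controls. Its groups did not overlap (all genes, 7.01%), and the log2 fold change of -0.36 (SE 0.12) was not called by edgeR (adjusted p 0.674). Gldc, the decarboxylase of the same complex, went the other way and overlapped (log2 fold change 0.32, SE 0.24). Phgdh, the entry to serine synthesis, had a log2 fold change of 0.09 (SE 0.12) and Psat1, the following enzyme, one of -0.14 (SE 0.17).

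In the list of folate uptake and storage, 1 of 7 was above 0, Slc25a32, the carrier that brings folate into mitochondria. It was at 26.9, 29.4 and 28.1 CPM against 20.1, 28.5, 23.4 and 24.6 CPM, overlapping through control 2 (log2 fold change 0.22, SE 0.12). Ggh, which trims the glutamate tail of folate, had a log2 fold change of -0.23 (SE 0.18). Of 8 genes that use folate, 4 were above 0 and 4 below, the largest differences being those of Mthfs (-0.43, SE 0.34) and Ftcd (0.29, SE 0.78).

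Of 8 methionine cycle genes, 4 were above 0 and 4 below. Ahcy, which clears S-adenosylhomocysteine, was at 323, 360 and 328 CPM against 439, 221, 232 and 205 CPM. Control 1 lay above every other library, and the Hes1 cKO libraries lay above the other 3 controls. With all libraries edgeR gave a log2 fold change of 0.30 (SE 0.24) at an adjusted p of 0.959. Without control 1 it gave 0.62 (SE 0.09) at an adjusted p of 0.0327. Of 5 choline oxidation genes, 1 was above 0, Sardh, the mitochondrial sarcosine dehydrogenase that hands carbon to folate (0.26, SE 0.11; adjusted p by edgeR 0.833), and Pipox had a log2 fold change of -0.13 (SE 0.12).

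The wider aldehyde dehydrogenase family, to which the Aldh1l genes belong, was represented by 16 other tested genes, of which 6 were above 0 and 10 below. None was called by edgeR, DESeq2 or limma-voom, with 1 at an unadjusted p under 0.05 (all genes, 5.95%). That gene, Aldh3b1, was at 34.2, 31.7 and 43.3 CPM against 25.6, 30.8, 21.5 and 27.4 CPM, without overlap (all genes, 7.01%). Its log2 fold change was 0.47 (SE 0.15; adjusted p by edgeR 0.616). Aldh1a3, a retinoic acid producer, had the largest log2 fold change of the family apart from Aldh1l2, 0.73 (SE 0.41), with overlapping groups.

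ATF4, the transcription factor of the amino acid response, is known to switch on mitochondrial one-carbon enzymes. Of 12 genes of that response 11 were tested (all but Slc7a11), 5 above 0 and 6 below, with a median log2 fold change of -0.02. None was called by edgeR, DESeq2 or limma-voom, and 1, Vldlr (-0.20, SE 0.08), had an unadjusted p under 0.05 (all genes, 5.95%). Chac1 (0.66, SE 0.31) and Trib3 (0.52, SE 0.32) had the largest differences, both with overlapping groups at 0.878 to 3.21 CPM. Asns, the asparagine synthetase, had a log2 fold change of 0.30 (SE 0.19) and Atf4 itself one of -0.02 (SE 0.21).

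**Figure D4:**
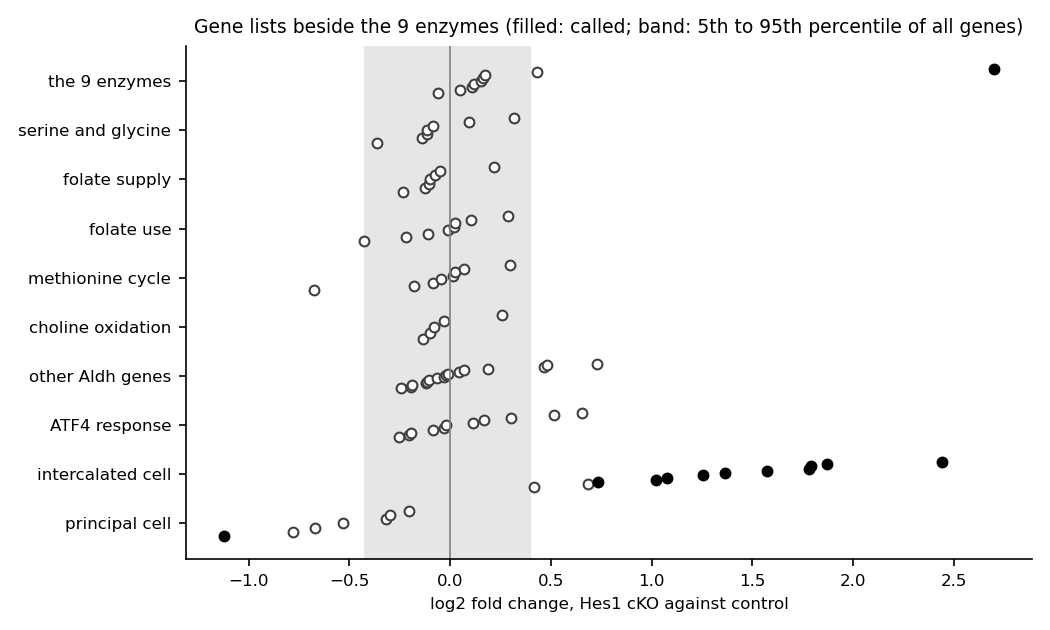
Log2 fold change of Hes1 cKO against control (horizontal axis) for the 9 enzymes, the 7 lists around them and 2 marker lists; each point is a gene, filled where edgeR called it, and the band spans the 5th to 95th percentile of all tested genes (-0.42 to 0.40). Aldh1l2 at 2.70 is the only filled point among the enzymes and the 7 lists. It was chosen for its rise in this comparison, so nothing is read from its call. The intercalated cell markers lie between 0.41 and 2.44.

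Levels of the 9 enzymes were also set against Xist, which marks female cells, a comparison chosen after values had been seen. For Shmt1 the 3 libraries with high Xist (144 to 199 CPM) lay above the 4 with low Xist (121 to 132 CPM), in both genotypes. With genotype in the model, the difference was 0.43 on the log2 scale (SE 0.10), which edgeR did not call (adjusted p 0.0974). It was the 1 enzyme of 9 whose libraries were apart in this way, beside 11.9% of all tested genes (5.95% higher with high Xist), so the share of the set was near the background. Aldh1l2 showed no such split, with a log2 difference of -0.14 (SE 0.29).

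Among the surrounding genes, Bhmt, the betaine-dependent enzyme that makes methionine from homocysteine beside Mtr, had the smallest adjusted p in the same split. It was at 7.04, 4.90, 6.83 and 8.05 CPM in the low-Xist libraries Hes1 cKO 1, Hes1 cKO 2, control 1 and control 2. In the high-Xist libraries Hes1 cKO 3, control 3 and control 4 it was at 22.9, 29.8 and 28.9 CPM. The groups were apart whatever the genotype, a log2 difference of 1.96 (SE 0.13; adjusted p by edgeR 1.5e-04, with 1.11% of all genes called). Its difference between the genotypes, -0.67 (SE 0.65), was not called by edgeR (adjusted p 0.969). The Hes1 cKO group held 1 high-Xist library of 3 where control held 2 of 4. Among the alternative fits was a comparison of the genotypes with Xist as a covariate. It gave Shmt1 a log2 fold change of 0.16 (SE 0.10), beside 0.12 (SE 0.17) without the covariate. For Aldh1l2, chosen for its rise, it gave 2.68 (SE 0.29), beside 2.70 (SE 0.29). For Bhmt the difference between the genotypes from such a fit is not given here.

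**Figure D5:**
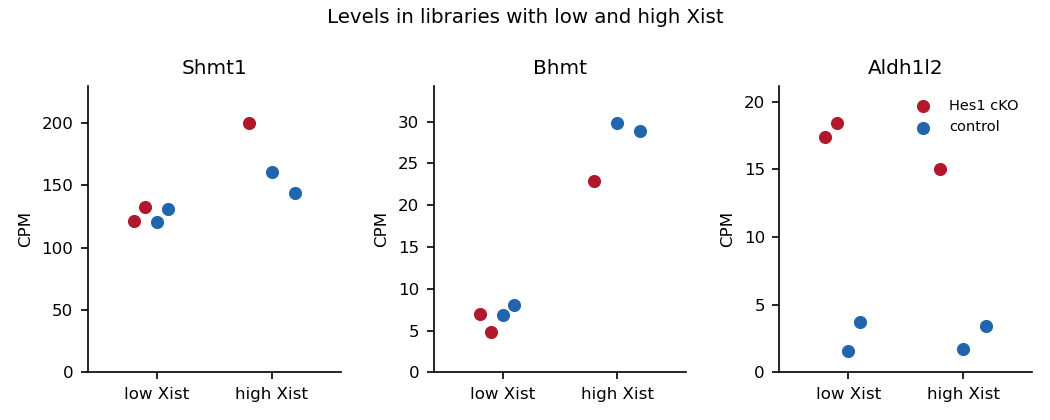
Levels of Shmt1, Bhmt and Aldh1l2 in CPM (vertical axes from 0) in the 4 libraries with low and the 3 with high Xist; each point is a library, red for Hes1 cKO and blue for control. In this split, chosen after values had been seen, Shmt1 (not called by edgeR) and Bhmt (called) lie apart by Xist. Aldh1l2 lies apart by genotype, the difference it was chosen for.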

How the data were processed

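The authors deposited whole-number read counts per gene, not normalized, in a pair of tables; FastQC, STAR and DESeq2 and the builds mm10 and GRCm38 are named, without roles, per the submitters' processing notes. No source used here names the counting program, its strand setting or its annotation. The titles name 7 Hes1 cKO and 9 control samples, and the series text the reverse. In the table used, 7 columns show a genotype and a code but cannot be tied to a title; the 9 columns of the other table show none and were not used. Genes were kept by filterByExpr (minimum count 10), scaled by TMM, and tested with edgeR 4.0.16 (quasi-likelihood, no covariate, R 4.3.3), with Benjamini-Hochberg adjustment over all tested genes; a gene is called at an adjusted p under 0.05. Intervals are at 95%. The permutation test used log2(CPM + 1) and the difference of means; likeness used log2 CPM with a prior count of 2. RPKM used union exon lengths of GENCODE M21 (GRCm38), and libraries above 100 CPM of Xist count as high. Alternatives used DESeq2 1.42.0 and limma 3.58.1. On simulated counts for this comparison, 79.6% of genes changed 2-fold and 95.1% of those changed 4-fold were recovered, and 6.42% of calls were false. The changed genes were drawn only from those with a mean of at least 1 CPM, in a number set beforehand. Their directions were drawn at random, whereas in the data edgeR called 50 genes higher and 3 lower. The simulated shares hold for the simulated setting and not for every tested gene.

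The enzymes and lists were chosen with earlier results of these data known. Named are Hes1, the 9 enzymes, the 5 genes most like Aldh1l2 and, in each of the 7 lists, called genes and the 2 with the largest absolute log2 fold change at a mean CPM of at least 1. Phgdh, Psat1, Asns, Atf4 and Vldlr, and the split by Xist, were added after values had been seen.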

Additional observations from a re-analysis of the deposited data

Results flagged for a closer look

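In 23 genes (the 9 enzymes and the genes named by rule in the lists) the 4 controls were screened for a library whose gap to its neighbour took more of the whole range than Dixon's 95% limit for 4 samples. Chance alone marks about 1 in 20 such groups. Among all 15615 tested genes the limit was passed in 5.48%, by control 1 in 2.15%. In the 23 genes, which are related and of which 14 were named for large fold changes, 5 were found, all at control 1. Mtr was highest there, at 36.5 CPM against 30.8 to 31.4 CPM in the other controls (0.890 of the range). Gcsh was highest, at 147 CPM against 121 CPM in each other control (0.994), and so was Ahcy, at 439 CPM against 205 to 232 CPM (0.885). Ggh was lowest, at 14.3 CPM against 22.4 to 22.7 CPM (0.968), as was Mthfs, at 1.49 CPM against 3.13 to 3.28 CPM (0.914). Without control 1 the log2 fold changes were 0.17 for Mtr, -0.29 for Gcsh, 0.62 for Ahcy, -0.37 for Ggh and -0.63 for Mthfs. Aldh1l2 was at 2.52 without it.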

How the results depend on the processing

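Of 14 alternatives, scaling by total counts was added after seeing the data. In all of them Hes1 stayed lower and called (log2 fold change -1.72 without control 1 to -1.51 without control 3) and Aldh1l2 stayed higher (2.52 without control 1 to 2.92 without control 2). With 53 genes called in the main analysis, there were 127 by DESeq2's Wald test and 102 without a low-count filter. Leaving out single libraries gave 25 (Hes1 cKO 2) to 47 calls (control 2), among them 27 for Hes1 cKO 1. Of the 9 enzymes, 7 to 9 were above 0. No gene of the 7 lists was called except Ahcy without control 1, so that count was 0 to 1 over the left-out libraries. The sign changed in 2 alternatives for Mthfd1l, 1 for Shmt2 and 1 for Shmt1, none of them called. With 27 to 70 counts of Aldh1l2 per control, its level there is known less closely than in Hes1 cKO (256 to 372 counts). No paired analysis was possible because the groups share no number in the column names, whose suffixes run from 1 to 3 in Hes1 cKO and from 4 to 7 in control.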

Other observations

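With genotype in the model, Atf4 was lower in the libraries with high Xist, at 58.6 to 74.5 CPM against 89.3 to 105 CPM (log2 difference -0.58, SE 0.10, edgeR adjusted p 0.0339). Cbs (-0.66, SE 0.14) and Mat2a (-0.38, SE 0.08), a transsulfuration and a methionine cycle enzyme, were also lower without overlap and were not called (edgeR adjusted p 0.0569 and 0.0531). Gldc, Pipox, Folr1, Aldh9a1 and Aldh1a7 of the lists were lower without overlap and uncalled too, whereas Bhmt was higher and called. Over all tested genes, 11.9% were apart in this split and 1.11% were called. Of the other ATF4 response genes, Nupr1 (0.64, SE 0.15) and Sesn2 (0.23, SE 0.09) were higher without overlap and Trib3 (-0.54, SE 0.30) lower, all uncalled. These genes were chosen after their values were seen. Ftcd, an enzyme of histidine breakdown that feeds folate, ranged from 6.92 to 157 CPM among the 4 controls, the latter in control 1, and from 55.6 to 85.2 CPM in Hes1 cKO.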
